A study of Rattus norvegicus with 8 samples.

Results

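The miR-30 family was examined by miRNA sequencing in bone marrow mesenchymal stem cells (BMSCs) of the rat, the adherent stromal cells of marrow that can become osteoblasts, chondrocytes or adipocytes. Its members were taken by name: every listed mature miRNA called miR-30a, miR-30b, miR-30c, miR-30d or miR-30e, whichever arm of the hairpin it came from. This gave 11 of 487 mature miRNAs, 5 of them 5p arms and 6 of them 3p arms. There were 4 samples labelled as control and 4 labelled as exposed to dexamethasone, a synthetic glucocorticoid, at 10 µM for 48 h. No genetic change, vehicle, animal strain or age is named in the sources used here, and nothing says that replicates were cultured apart, so a p-value here reflects spread among the 8 samples that may be technical.

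A miRNA hairpin is cut by Dicer into a 5p and a 3p arm, and one of them is usually loaded into Argonaute to repress transcripts that pair with its seed, the bases from position 2 to position 8. The 5p arms of the miR-30 family share a seed and are therefore thought to share many targets. In mouse bone-forming cells the family is known for repressing Runx2 and Smad1, factors of osteoblast differentiation, and in human cells miR-30a is known for targeting the autophagy gene Becn1. In the rat annotation used for names (RefSeq on GRCr8, a build other than that of the files), 6 hairpin genes lie in 3 neighbouring pairs: Mir30a with Mir30c2, Mir30e with Mir30c1 inside the gene Nfyc, and Mir30d with Mir30b inside the long non-coding RNA LOC102551574.

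Sequences were found by name for 6 of the 11 arms and are shown in lower case with the seed in capitals (RefSeq, GRCr8), because the seed defines the family and the other bases decide how well its members can be told apart. The 5p arms are listed first, then the 3p arms, each from its 5′ end.
rno-miR-30a-5p: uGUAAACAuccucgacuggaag
rno-miR-30e-5p: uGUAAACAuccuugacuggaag
rno-miR-30c-5p: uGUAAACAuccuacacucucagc
rno-miR-30a-3p: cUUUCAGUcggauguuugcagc
rno-miR-30c-1-3p: cUGGGAGAggguuguuuacucc
rno-miR-30c-2-3p: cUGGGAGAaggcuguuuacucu

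Counted from the 5′ end, miR-30a-5p and miR-30e-5p differed by the single substitution C13U, so 21 of 22 bases were identical. miR-30c-5p differed from miR-30a-5p at 5 of the 22 positions compared (C13A, G14C, G18C, G19U and A20C) and was longer by 1 base. The 5p seed was found in 4 of 693 rat mature miRNAs of the reference, the fourth being rno-miR-384-5p, which the naming rule leaves out. The members rno-miR-30b-5p, rno-miR-30b-3p, rno-miR-30d-5p, rno-miR-30d-3p and rno-miR-30e-3p had no mature sequence in the reference. They are named only, and the count of 4 leaves out miR-30b-5p and miR-30d-5p for that reason.

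The miR-30c hairpins are shown with their mature arms in capitals, because both give the same 5p arm while their 3p arms differ by the substitutions G9A, U12C and C22U (from miR-30c-1-3p to miR-30c-2-3p). A miR-30c-5p count therefore belongs to either gene, and only the 3p counts tell the genes apart.
Mir30c1: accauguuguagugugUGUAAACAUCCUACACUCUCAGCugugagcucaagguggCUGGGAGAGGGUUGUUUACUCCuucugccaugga
Mir30c2: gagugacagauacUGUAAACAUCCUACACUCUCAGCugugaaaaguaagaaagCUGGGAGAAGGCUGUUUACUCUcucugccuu

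Libraries held 1835256 to 2639007 counts in control and 1377881 to 1521505 counts in dexamethasone samples, so every treated library was shallower, and depth and treatment cannot be told apart. Levels are given as CPM, a miRNA's count scaled to a common library total, as deposited, and library preparation can favour some miRNAs, so an order of levels is an order of counts. Mesenchymal marker miRNAs were abundant, with a summed level of 195394 to 207611 CPM in control and 226694 to 255437 CPM in dexamethasone samples over 10 arms, led by miR-199a-3p. Of their 9 tested arms 3 rose (miR-199a-3p, miR-199a-5p and miR-21-5p), 2 fell (miR-143-3p and miR-143-5p, with log2 fold changes of -0.30 and -0.59) and 4 did not pass. Mean levels went from 68956 to 101442 CPM for miR-21-5p, from 97394 to 110804 CPM for miR-199a-3p and from 28820 to 22893 CPM for miR-143-3p. The higher sum is therefore not read as a gain of mesenchymal cells. Summed haematopoietic markers (7 arms, led by miR-142-3p) ran from 36.4 to 47.7 CPM in control and from 50.4 to 68.2 CPM in treated samples, where 1 of 2 tested arms rose. Skeletal muscle markers (7 arms, led by miR-206-3p) ran from 73.7 to 103 and from 236 to 331 CPM, where 2 of 2 tested arms rose, and the endothelial miR-126a (2 arms, led by miR-126a-3p) from 1790.1 to 2000.3 and from 1163 to 1331 CPM, where both arms fell. Epithelial markers (10 arms, led by miR-203a-3p) ran from 12.5 to 17.4 and from 10.9 to 22.3 CPM, and neural markers (2 arms, led by miR-9a-5p) from 15.3 to 27.3 and from 15.2 to 29.6 CPM, with 0 of 1 tested arms passing in each. No listed marker arm was at 0 in all 8 samples. These shifts were measured beside every miR-30 change below, and their part in those changes was not tested.

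Most 5p arms of the family, and some 3p arms, were higher after dexamethasone. Of the 11 arms, all past the abundance filter, 6 rose and 0 fell at a Benjamini-Hochberg adjusted p below 0.05 in edgeR's quasi-likelihood test, fitted over 245 miRNAs. The background was 24.9% of tested miRNAs higher and 21.2% lower. The 6 were 4 of 5 5p arms and 2 of 6 3p arms. The median log2 fold change was 0.42 over the 11 arms, 0.50 over the 5p arms and -0.01 over the 3p arms, beside 0.00 over all tested miRNAs. Groups did not overlap in CPM for the same 6 arms, against a background of 42% of tested miRNAs. In bulk RNA, more cells that carry a miRNA and more of it per cell cannot be told apart, and the same holds for fewer cells and less per cell.

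Upper quartile scaling moved the median log2 fold change of all tested miRNAs by -0.15 and the split of all calls from 61 higher and 52 lower to 41 higher and 71 lower. Under it 5 miR-30 arms were higher and 0 lower, the call of miR-30e-5p being lost. The authors' deposited table put the same 6 arms below 0.05, with adjusted p of at most 0.0122, while the other 5 had 0.246 or more.

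**Figure D1:**
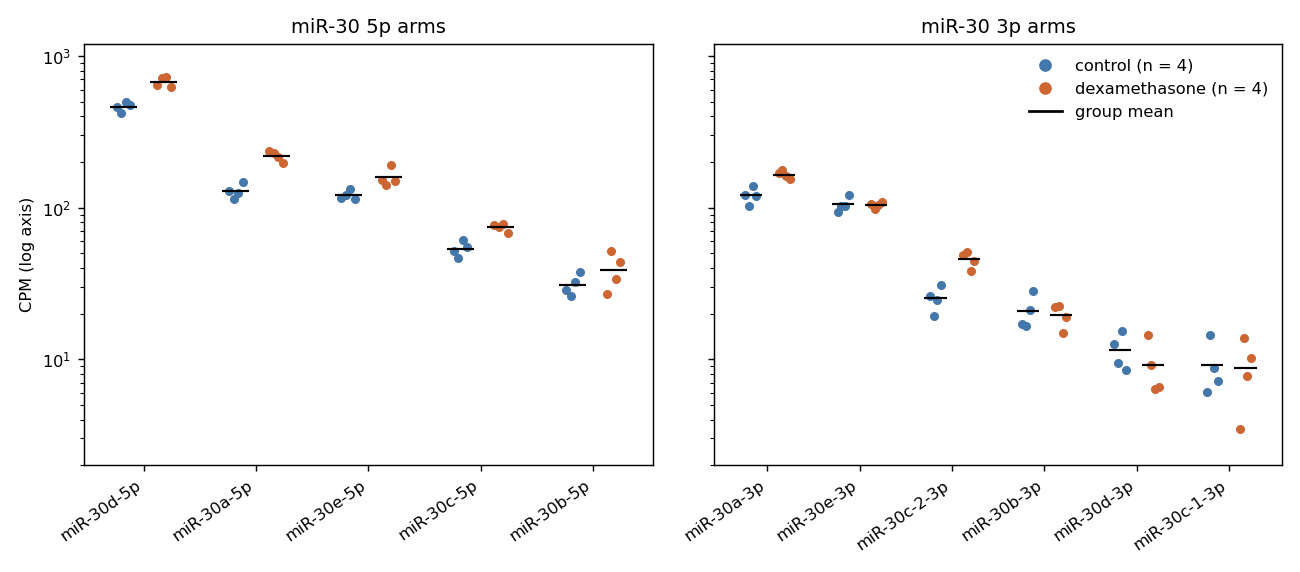
Level of each miR-30 arm in every sample, in CPM on a log axis; points are samples (4 control, 4 dexamethasone), bars are group means, and arms are ordered by their control mean. rno-miR-30d-5p lies highest in both groups, and the groups are apart for miR-30d-5p, miR-30a-5p, miR-30e-5p, miR-30c-5p, miR-30a-3p and miR-30c-2-3p.

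Among the seed-sharing 5p arms, the most abundant was rno-miR-30d-5p, a member studied in human melanoma invasion and in autophagy. It had 460, 421, 495 and 472 CPM in control replicates 1 to 4 and 646, 718, 725 and 622 CPM in dexamethasone replicates 1 to 4. The lowest treated sample stood well above the highest control. The mean went from 462 ± 31.1 to 678 ± 51.4 CPM (SD, n = 4), a 1.49-fold rise with a log2 fold change of 0.58 ± 0.08 (SE; adjusted p of 5.39e-05 in edgeR).

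rno-miR-30a-5p, the Becn1-targeting member, showed the steepest fitted rise of the 5p arms. Control values were 128, 114, 125 and 147 CPM, and treated values 235, 230.0, 217 and 197 CPM. Treated samples were all above the controls, and the difference was larger than the spread within either group. The fold change was 1.75, or 0.81 ± 0.10 on the log2 scale (SE, n = 4, edgeR adjusted p = 3.88e-05), the 21st highest of 245. Over all 17 alternative settings its log2 fold change stayed between 0.65 and 0.88.

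rno-miR-30e-5p, known in human breast cancer cells for targeting the SUMO-conjugating enzyme Ubc9, had 115, 122, 133 and 114 CPM in control and 152, 142, 191 and 149 CPM in dexamethasone samples. Replicate 3 was the highest sample of each group, and the groups did not overlap. The log2 fold change was 0.42 ± 0.11 (SE, n = 4, edgeR adjusted p = 0.00842). With upper quartile scaling it was 0.26 and missed the threshold (edgeR adjusted p = 0.0683).

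Because miR-30a-5p and miR-30e-5p differ by a single base, the authors' counting may have assigned reads of either to the other. Their summed level was 249 ± 12.3 CPM in controls and 378 ± 26.0 CPM after dexamethasone (SD, n = 4). It ran from 235 to 261 CPM in control and from 346 to 408 CPM in treated samples, and such an exchange leaves this sum as it is. Because both arms were already apart in the same direction, their sum had to be apart too. It is therefore no separate support for either rise.

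rno-miR-30c-5p, the member best known as a Runx2 repressor, had 51.5, 46.4, 61.6 and 54.8 CPM in control samples and 76.6, 74.3, 77.4 and 68.2 CPM in dexamethasone samples. The treated samples were close to each other and above every control. The rise was 1.42-fold, with a log2 fold change of 0.50 ± 0.12 (SE, n = 4, edgeR adjusted p = 0.00394). Thinning all libraries to 1377881 counts gave 0.33 (edgeR adjusted p = 0.0415).

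rno-miR-30b-5p, the least abundant 5p arm, did not pass. It had 28.4, 26.0, 32.1 and 37.8 CPM in controls and 26.9, 51.9, 33.8 and 43.5 CPM after dexamethasone. Dexamethasone replicates 1 and 3 lay within the control range and replicate 2 was the highest of all samples, so the groups overlapped. The log2 fold change was 0.36 ± 0.19 (SE, n = 4), with a 95% interval from -0.06 to 0.78 (edgeR adjusted p = 0.145). Without dexamethasone replicate 1 it was 0.49 and passed (edgeR adjusted p = 0.0479), and without dexamethasone replicate 2 it was 0.17.

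In control samples the order of 5p levels was miR-30d, miR-30a, miR-30e, miR-30c and miR-30b. miR-30a-5p and miR-30e-5p overlapped in the controls, while each other neighbouring pair was apart. In treated samples the same order held and none of the neighbours overlapped, miR-30a-5p running from 197 to 235 CPM and miR-30e-5p from 142 to 191 CPM. The place of miR-30a-5p beside miR-30e-5p rests on how their near-identical reads were assigned.

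The summed 5p level was 782, 729, 847 and 826 CPM in controls and 1136, 1216, 1244 and 1079.9 CPM after dexamethasone. The lowest treated value lay above the highest control. The mean went from 796 ± 52.3 to 1169 ± 74.9 CPM (SD, n = 4), or from 0.0796% to 0.117% of all miRNA counts.

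The make-up of this pool was compared as the share of each arm, without a test. miR-30d-5p held 58.0 ± 0.701% of the summed 5p counts in controls and 57.9 ± 0.923% after dexamethasone (SD, n = 4). The share of miR-30a-5p was 16.1 ± 1.30% and 18.8 ± 1.37%, and that of miR-30e-5p 15.3 ± 1.25% and 13.6 ± 1.52% (SD, n = 4), with overlapping groups for both. miR-30c-5p held 6.71 ± 0.387% and 6.35 ± 0.277%, and miR-30b-5p 3.89 ± 0.464% and 3.35 ± 0.945% (SD, n = 4).

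**Figure D2:**
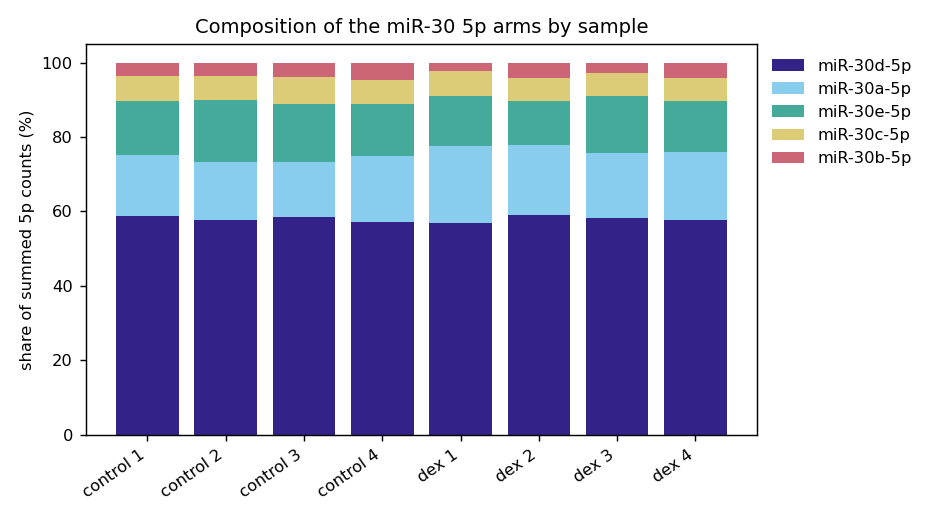
Share of each 5p arm in the summed miR-30 5p counts of each sample, in percent, stacked to 100; bars are the 4 control and 4 dexamethasone (dex) samples. miR-30d-5p takes 56.9 to 59.0% of every bar.

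Whether members of the seed family responded unequally was tested with the ratio of 2 arms within each sample, which does not depend on scaling between libraries. Of the 10 pairs of 5p arms, 0 passed an exact two-sided permutation test over 70 assignments after adjustment over the pairs, and 1 did before it (smallest possible p = 0.0286). That pair was miR-30a-5p to miR-30c-5p, whose ratio was 2.38 in controls and 2.94 after dexamethasone, a log2 difference of 0.30 ± 0.09 (SE, n = 4, exact permutation p = 0.0286, adjusted p = 0.143). The share of other miRNA pairs that reach this p was not computed. miR-30a-5p to miR-30e-5p went from 1.06 to 1.39, a log2 difference of 0.40 ± 0.16 (SE, n = 4, exact permutation p = 0.0571, adjusted p = 0.143). This ratio also depends on how reads of these near-identical arms were assigned. miR-30c-5p to miR-30d-5p differed by -0.08 ± 0.06 between the groups (SE, n = 4, exact permutation p = 0.229, adjusted p = 0.381). A few pairs at the smallest possible p could not pass after adjustment over 10 pairs, so a lone differing arm could not be called. These p-values do not show that the members responded alike.

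The 3p arms are often the less loaded strand, and each comes from a single gene. Both 3p arms of the Mir30a and Mir30c2 pair rose, and none of the other 4 passed. A difference between loci was not tested. Of the 15 ratios between 3p arms 0 passed after adjustment, but 4 were at the smallest p the permutation test can give. The 0 calls therefore do not speak to a difference between loci. Summed per locus, the 3p level of that pair was 146 ± 17.04 CPM in controls and 211 ± 14.3 CPM after dexamethasone, running from 122 to 163 and from 198 to 228 CPM. For Mir30e and Mir30c1 it was 114 ± 12.2 and 112 ± 4.25 CPM, and for Mir30b and Mir30d 32.2 ± 5.35 and 28.7 ± 6.80 CPM (SD, n = 4). The groups overlapped in both of the latter. The 3′ side of the Mir30e hairpin holds a stretch that differs from miR-30a-3p by a single base. Counting may therefore have assigned reads of miR-30a-3p and miR-30e-3p to each other, and the values per locus rest on telling them apart. The sum of all 3p arms, which such an exchange leaves as it is, ran from 265 to 316 CPM in control and from 331 to 371 CPM in treated samples.

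rno-miR-30a-3p had 121, 103, 138 and 119 CPM in control and 168, 177, 160.4 and 155 CPM in dexamethasone samples. No treated sample fell to the level of a control. Its log2 fold change was 0.49 ± 0.10 (SE, n = 4, edgeR adjusted p = 0.00209).

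rno-miR-30c-2-3p had 26.1, 19.2, 24.5 and 31.0 CPM in controls and 48.3, 51.3, 38.0 and 44.3 CPM after dexamethasone, again with no overlap. It had the largest fitted change of the 11 arms, 1.84-fold, the 18th highest of 245 (log2 fold change 0.88 ± 0.17, SE, n = 4, edgeR adjusted p = 0.00105). Its counterpart from the other miR-30c gene, rno-miR-30c-1-3p, had 16, 34, 16 and 16 counts in controls and 5, 21, 11 and 14 counts after dexamethasone, or 9.11 ± 3.74 and 8.79 ± 4.34 CPM (SD, n = 4). The 5 counts of dexamethasone replicate 1 alone have an exact 95% Poisson interval from 1.62 to 11.7 counts, which covers counting error only. Its log2 fold change was -0.02, with a 95% interval from -0.87 to 0.82 (n = 4, edgeR adjusted p = 0.963), whose upper bound lay just below the 0.88 fitted for miR-30c-2-3p and inside that arm's own interval, from 0.51 to 1.24. The ratio of the 2 miR-30c 3p arms did not pass either (log2 difference of miR-30c-1-3p to miR-30c-2-3p -0.93 ± 0.55, SE, n = 4, exact permutation p = 0.143, adjusted p = 0.268).

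rno-miR-30e-3p had 93.6, 102, 102 and 122 CPM in controls and 105, 97.3, 103 and 108 CPM after dexamethasone. All 4 treated values lay inside the control range. The log2 fold change was 0.01 ± 0.10 (SE, n = 4), with a 95% interval from -0.22 to 0.24 (edgeR adjusted p = 0.954), and 12 of 17 alternative settings put it just below 0.

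The remaining 3p arms were scarce. rno-miR-30b-3p had 20.8 ± 5.43 CPM in controls and 19.5 ± 3.54 CPM after dexamethasone, a log2 fold change of -0.05 with a 95% interval from -0.54 to 0.43 (SD, n = 4, edgeR adjusted p = 0.873). rno-miR-30d-3p, the minor strand of the most abundant hairpin, had 33, 22, 28 and 19 counts in controls and 21, 14, 9 and 9 counts after dexamethasone. Its level was 11.4 ± 3.08 and 9.14 ± 3.80 CPM, and its log2 fold change was -0.27 with a 95% interval from -0.97 to 0.42 (SD, n = 4, edgeR adjusted p = 0.537). The groups overlapped. Leaving out 1 sample at a time moved the log2 fold change between -0.60 (without dexamethasone replicate 1) and -0.12 (without dexamethasone replicate 4); it was -0.14 without dexamethasone replicate 3 and -0.15 without control replicate 3.

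**Figure D3:**
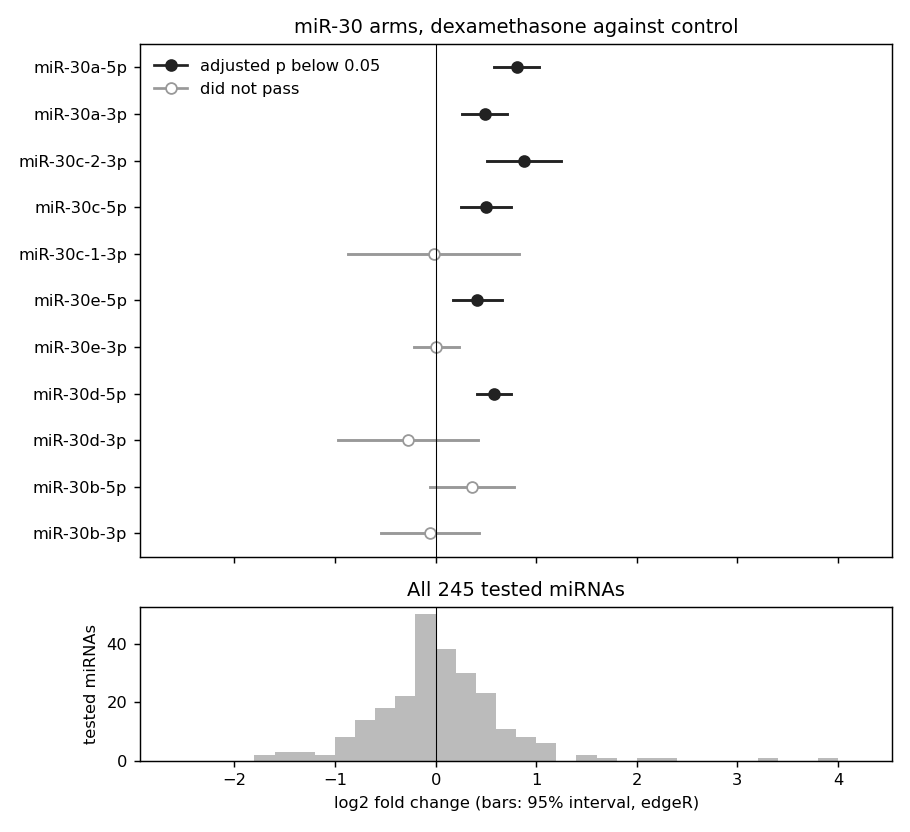
Upper panel, log2 fold change of each miR-30 arm (dexamethasone against control, edgeR) with its 95% interval, arranged by locus; filled points passed at an adjusted p below 0.05. Lower panel, histogram of the log2 fold changes of all 245 tested miRNAs; the 6 filled points lie between 0.42 and 0.88.

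The ratios between 3p arms were compared in the same way, a test added after the values were seen. Of 15 pairs, 0 passed after adjustment and 4 before it. Those 4 were also the pairs without overlap, which in this test is the same fact as the smallest p. The share of such pairs among other miRNAs was not computed, so these 4 are not read as a result. Their p was the smallest this test can give, and adjustment over 15 pairs still put it above the threshold. So few pairs could not pass, however large their differences. miR-30a-3p to miR-30e-3p went from 1.15 to 1.59, a log2 difference of 0.47 ± 0.14, and miR-30c-2-3p to miR-30e-3p from 0.241 to 0.441, a log2 difference of 0.87 ± 0.16 (SE, n = 4, exact permutation p = 0.0286, adjusted p = 0.107 for both). With the same p-values, miR-30a-3p to miR-30b-3p differed between the groups by 0.52 ± 0.20 and miR-30b-3p to miR-30c-2-3p by -0.92 ± 0.12 (log2, SE, n = 4, exact permutation). These p-values were not independent of the arm tests, since miR-30a-3p and miR-30c-2-3p, the 3p arms already called higher, each stand in several pairs. The ratio of miR-30a-3p to miR-30e-3p also depends on how reads of these near-identical arms were assigned.

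Arm usage was followed with the ratio of 5p to 3p counts in each sample. Over 63 hairpins with both arms tested, limma called 0% of ratios higher and 1.59% lower at an adjusted p below 0.05. Among the 6 miR-30 hairpins 0 passed, and 2 had an unadjusted p below 0.05, beside 15 of all 63. The miR-30d hairpin, by far the most 5p-biased, had log2 ratios of 5.16, 5.43, 4.97 and 5.72 in controls and 5.41, 6.19, 6.69 and 6.42 after dexamethasone. Dexamethasone replicate 1 lay within the control range and the other treated samples above it, and the difference was 0.86 ± 0.29 (SE, n = 4, limma adjusted p = 0.115).

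The miR-30e hairpin, with near-equal arms, had log2 ratios of 0.30, 0.25, 0.39 and -0.09 in controls and 0.53, 0.54, 0.88 and 0.46 after dexamethasone. The groups did not overlap, with a difference of 0.39 ± 0.17 (SE, n = 4, limma adjusted p = 0.189). The miR-30a hairpin differed by 0.32 ± 0.15, also without overlap (SE, n = 4, limma adjusted p = 0.189). The share of all 63 hairpins without overlap was not computed, so the lack of overlap is not read as a result. The 5p arm of miR-30c went the other way against its Mir30c2 partner, by -0.38 ± 0.18 (SE, n = 4, limma adjusted p = 0.189), but that 5p arm also comes from Mir30c1. miR-30b and miR-30c-1 differed by 0.36 ± 0.22 and 0.55 ± 0.43 (SE, n = 4, limma adjusted p = 0.341 and 0.501). For miR-30c-1 the difference was 0.18 without dexamethasone replicate 1 and 0.25 without control replicate 2. Without dexamethasone replicate 1 the 5p to 3p ratios of miR-30b and miR-30d passed as higher, by 0.59 and 1.11 on the log2 scale (limma adjusted p = 0.0491 and 0.0304). That sample held the lowest treated ratio of both hairpins, and leaving out any other sample gave 0 calls. The share of all hairpins called in that fit was not computed, so these calls are not read as a result.

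**Figure D4:**
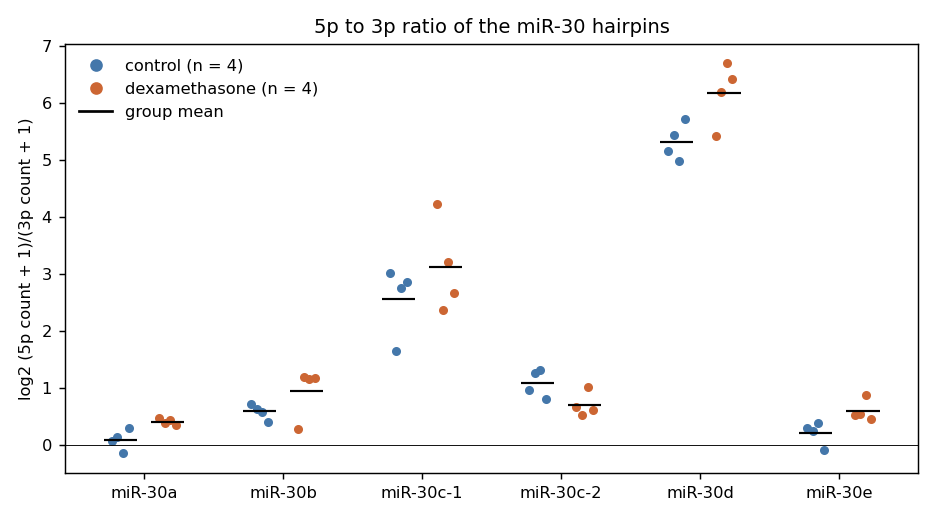
Log2 ratio of 5p to 3p counts (1 added to each) for the 6 miR-30 hairpins in every sample; points are samples (4 control, 4 dexamethasone) and bars are group means. miR-30d lies highest, and 1 treated sample of miR-30b, at 0.28, is apart from the other treated samples of that hairpin.

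A seed relative outside the naming rule, rno-miR-384-5p, did not pass, and its difference from the 5p arms of the family was not tested. It is shown because it carries the same seed (capitals) on an otherwise different sequence.
rno-miR-384-5p: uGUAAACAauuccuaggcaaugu

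rno-miR-384-5p, known mainly from brain and heart, had 17, 18, 13 and 14 counts in controls and 5, 5, 9 and 7 counts after dexamethasone, or 6.87 ± 0.631 and 4.54 ± 1.44 CPM (SD, n = 4). Treated levels were mostly lower, with dexamethasone replicate 3 level with the lowest control. The log2 fold change was -0.57 ± 0.31, with a 95% interval from -1.24 to 0.09, and did not pass (SE, n = 4, edgeR adjusted p = 0.147).

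Other miRNAs known for repressing Runx2, as miR-30c does, went both ways. Of 12 listed names, 8 were found with 15 arms, and 6 arms were tested, of which 1 rose and 3 fell, with a median log2 fold change of -0.20 beside 0.00 for all tested miRNAs. Arms were taken by name, so both arms of a name count here, and repression of Runx2 need not be known for each. miR-218a-5p, also known for promoting osteogenic Wnt signalling, rose from 69.5 to 111 CPM (log2 fold change 0.71 ± 0.15, SE, n = 4, edgeR adjusted p = 0.00194). miR-211-5p, a relative of miR-204, fell from 13.3 to 4.01 CPM (log2 fold change -1.70 ± 0.40, SE, n = 4, edgeR adjusted p = 0.00470). The p53-induced miR-34c-5p and miR-34c-3p fell as well, with log2 fold changes of -0.55 ± 0.07 and -0.71 ± 0.18 (SE, n = 4, edgeR adjusted p = 2.86e-05 and 0.00644). With no abundance filter the list held 4 rises and 3 falls among 15 arms, against a background of 12.5% of 487 miRNAs higher and 11.3% lower in that fit. The added rises were miR-133a-3p (11 and 27 counts summed over control and treated samples), miR-204-5p (17 and 31) and miR-218a-2-3p (1 and 12), with edgeR adjusted p of 0.0117, 0.0308 and 0.00968.

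The miRNAs outside the family whose profile over the 8 samples lay closest to the summed 5p level were miR-29a-3p, miR-101a-3p and miR-3559-5p, out of 205 with at least 10 CPM. Likeness was the root mean square distance of log2 CPM values, each centred on its own mean, and was 0.085, 0.089 and 0.099. miR-29a-3p, known for repressing collagen transcripts, had 12765 ± 868 CPM in controls and 18056 ± 2148 CPM after dexamethasone (SD, n = 4). miR-101a-3p had 198 ± 15.4 and 282 ± 27.8 CPM, and miR-3559-5p 84.0 ± 5.63 and 134 ± 3.34 CPM (SD, n = 4).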

How the data were processed

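Per the labels' protocols, RNA came from a Qiagen miRNA kit and libraries from a total RNA kit; how short RNAs were selected is not given there. Per the submitters' processing notes, Bowtie 1.0 and mRatBN7.2 were used. The sources used here do not give the counter, the annotation or the handling of reads shared by several miRNAs, so members with near-identical sequences are individually uncertain. Per the file headers, the deposited table gives counts, the authors' CPM (count over column total to within 4.98e-05), their log2 fold change, and their p-value and adjusted p-value, whose test is not stated.

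Counts of all 487 miRNAs were tested with edgeR 4.0.16 in R 4.3.3 (filterByExpr kept 245; TMM; quasi-likelihood test; group only), adjusting over all. The standard error is the log2 fold change divided by the square root of F. Ratios of 5p to 3p were tested with limma 3.58.1 (1 added to counts; miR-30c-5p paired with each 3p partner), and pair ratios with exact permutation in scipy 1.17.1. Libraries of a group differed by more than sampling noise (chi-square per degree of freedom at least 8.56). Both models were tested on simulated data. Members and lists were chosen with earlier results of these data known. Named were all members, Runx2 list arms that passed, the leading marker of each list and the 3 closest profiles; miR-384-5p, the mesenchymal marker arms that passed and the Runx2 list arms gained with no filter were named after their values were seen. Alternatives were DESeq2 1.42.0, limma voom, other scalings and filters, thinning, a replicate block and leaving out each replicate.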

Additional observations from a re-analysis of the deposited data

Results flagged for a closer look

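The log2 ratio of 5p to 3p counts of the miR-30b hairpin was 0.28 in dexamethasone replicate 1, far from the 1.16, 1.18 and 1.19 of the other treated samples. The gap was 0.959 of the group's whole range, above the 95% critical value of Dixon's test for 4 samples. In that library miR-30b-5p had 39 and miR-30b-3p 32 counts. Dexamethasone replicates 2 to 4 had 79 and 34, 48 and 21, and 60 and 26 counts, so low counts were not particular to replicate 1. The part of counting error in the flagged value was not tested. 58 groups of 4 values were checked, and chance flags about 1 in 20.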

How the results depend on the processing

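Of the 17 alternative fits, 15 gave 6 higher miR-30 arms, upper quartile scaling gave 5 and leaving out dexamethasone replicate 1 gave 7, with 0 lower in each. No pairing by replicate number was seen: deviations of same-numbered samples correlated at -0.03, -0.10, 0.08 and -0.21. No control correlated best with the treated sample of its own number, and of the treated samples only replicate 3 did so with its control. Such correlations cannot exclude a pairing. With the replicate block 6 arms were higher and 97 of all miRNAs passed in place of 113. Some arms that did not pass changed sign, staying short of the threshold. miR-30e-3p (log2 fold change 0.01) was at -0.0145 with RLE and with DESeq2, -0.14 with upper quartile, -0.0192 with total counts, -0.0039 with no filter, -0.0588 with the 10 CPM filter and -0.0801 after thinning. Leaving out 1 replicate gave -0.0546 to 0.0570 for it, -0.35 to 0.30 for miR-30c-1-3p and -0.16 to 0.11 for miR-30b-3p, and 0 to 2 hairpins with a changed 5p to 3p ratio. The summed 5p level moved from a log2 ratio of 0.55 to 0.43 with upper quartile scaling. With no filter 7 Runx2 list arms passed in place of 4. Pair ratios gave 0 calls also with 5 added to counts; leaving out a replicate, or the block, cannot reach the threshold there and was not run. miR-30c-1-3p was left out by the 10 CPM filter and after thinning, and miR-30d-3p by the former. Depth limits these arms, at 5 to 34 counts a sample.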
